A study of Homo sapiens with 6 samples.

Results

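The 40 genes described here encode the keratins, the cell-cell junction proteins and a few regulators that mark an epithelial cell. They were taken by symbol from a table of RNA-seq counts per transcript, and the counts of all transcripts of a gene were summed. All 40 were found among the 40173 genes of the table, as 315 of its 151453 transcripts with a gene. The genes were listed by name and role, with earlier results of these data known. RNA came from HCT116, an established human colorectal cancer cell line that the labels give as wild type in both groups. One group (MOCK) had received a control lentivirus, and the other (CYGB) a lentivirus with the coding region of CYGB, or cytoglobin, a haem protein, fused to a FLAG tag. Stable lines were obtained under puromycin in both groups, CYGB was expressed constitutively from the virus, and its promoter and the use of clones or pools are not given in the sources used here. Each group had 3 libraries that the submitters call biological replicates, with no statement on whether the transductions were repeated. The p-values then measure the spread between these libraries alone.

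Keratins are intermediate filament proteins that pair, a type I with a type II chain, and KRT8 with KRT18 and KRT19 form the filaments of simple epithelia such as the colon. Adherens junctions join neighbouring cells through cadherins, which bind the actin cytoskeleton through catenins. Desmosomes join the keratin filaments of neighbouring cells, and tight junctions close the space between cells near the apical surface through claudins and occludin. Loss of these genes together, with a gain of vimentin and N-cadherin, is known as epithelial-mesenchymal transition. The comparison of CYGB with MOCK asks whether this programme differed in the cells with cytoglobin.

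Libraries held 47193496 to 53531777 counts in transcripts with a gene, and the 40 genes took 0.829 to 0.879% of them. CYGB itself was nearly confined to the CYGB libraries, with 34935, 27681 and 32333 counts there and 10, 28 and 34 in MOCK (replicates 1 to 3). Of the colon epithelium markers, CDX2 (8.45 TPM, counts per transcript length scaled to a fixed total) and HNF4A (8.09 TPM) were present, and 9 had means under 1 TPM, among them MUC2, LGR5, CEACAM5 and SLC26A3. Of 18 markers of fibroblasts, blood and endothelium, 16 had means under 1 TPM, and COL1A1 (19.4 TPM) and CD68 (20.6 TPM) were the others.

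No epithelial gene differed between the groups by the threshold of the study's methods, an unadjusted p of at most 0.01 with a ratio of at least 2 or at most 0.5. With edgeR's quasi-likelihood test on counts per gene, 0 of 40 passed it, where 0.565% of the 19987 genes tested did (0.280% higher and 0.285% lower in CYGB). DESeq2 and edgeR's exact test each called 1 of the 40 (2.5%), F11R, against 1.32% and 1.28% of all genes. None had an adjusted p under 0.05 with any of these tools (Benjamini-Hochberg adjustment). Of all genes, 0.0550% did by the quasi-likelihood test, 0.540% by DESeq2 and 0.320% by the exact test. The lowest adjusted p of the 40 was 0.963 by the quasi-likelihood test, 0.185 by DESeq2 and 0.358 by edgeR's exact test, the last 2 for F11R. An unadjusted p under 0.05 was found for 5 of 40 genes (12.5%), against 4.54% of all genes. The same 5 were the genes whose groups did not overlap, with 4 higher and 1 lower in CYGB (12.5%, against 11.0% of all genes, of which 5.72% higher and 5.31% lower). The median log2 fold change of CYGB against MOCK was -0.02 over the 40 genes and -0.01 over all genes tested, with 19 above and 21 below 0. It lay within 0.25 of 0 for 28 of the 40 genes, and for 12101 of the 19987 genes tested. The 28 include near-absent genes with wide errors, CDH17 (standard error 0.76), KRT20 (0.42) and CLDN1 (0.42). In RNA from a whole culture, fewer cells with a transcript and less of it per cell cannot be told apart.

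**Figure D1:**
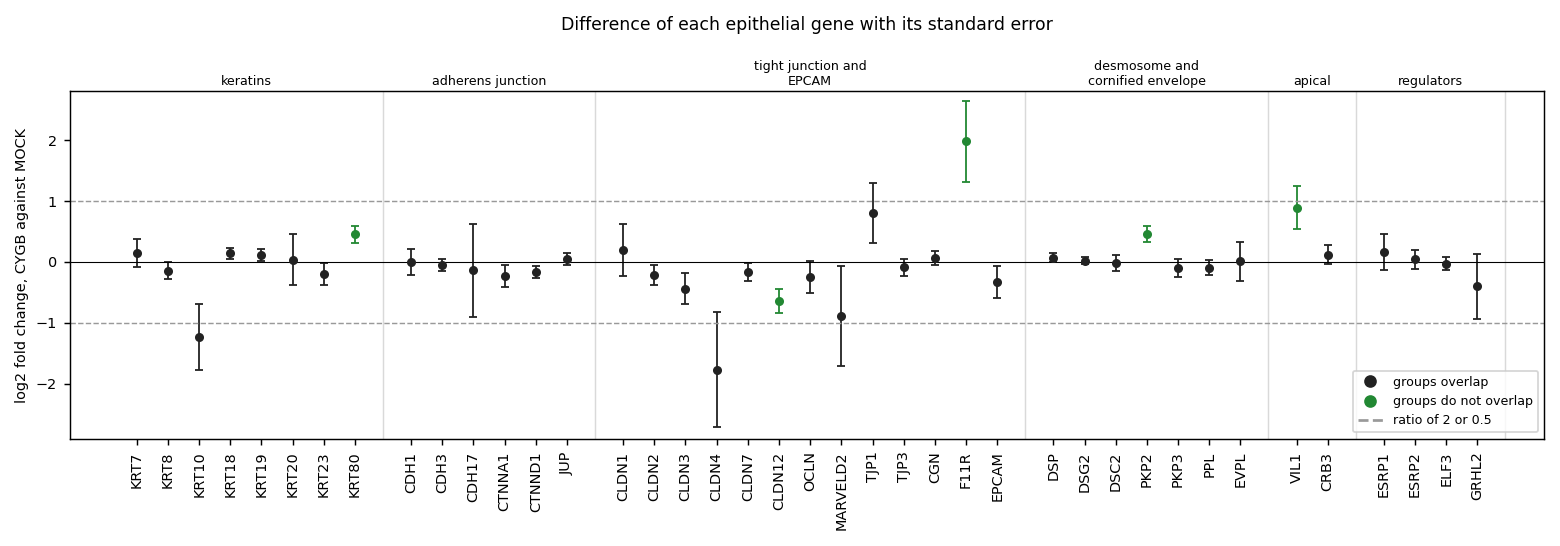
Log2 fold change of CYGB against MOCK (vertical axis) for each of the 40 genes, grouped by role, with its standard error from edgeR's quasi-likelihood fit (bars; 3 libraries per group). Green points mark the 5 genes whose groups did not overlap, and dashed lines mark a ratio of 2 or 0.5. Of the 40 points, 28 lie within 0.25 of 0, as did 12101 of all 19987 genes tested.

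In all libraries the keratins of simple epithelia were the most abundant of these transcripts. KRT19, a type I chain, had a mean level of 2450.0 TPM over the 6 libraries, KRT8, the type II chain, 1919 TPM and KRT18, its type I partner, 637 TPM. The ranges of these 3 over the libraries did not overlap, so their order was the same in each library. Together they made up 64.8% ± 0.621 of the summed TPM of the 40 genes in MOCK and 66.2% ± 1.22 in CYGB (SD, n = 3).

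KRT19 had 1563, 1686 and 1491 CPM (counts scaled to the normalized library size) in MOCK replicates 1 to 3 and 1513, 1817 and 1800.2 CPM in CYGB replicates 1 to 3. KRT8 had 1878, 1924 and 1604 CPM in MOCK and 1974, 1422 and 1509 CPM in CYGB. KRT18 had 23031, 24303 and 26987 counts in MOCK and 25263, 27421 and 30535 in CYGB. The groups overlapped for each of the 3 chains, with log2 fold changes of 0.11 (standard error 0.09), -0.14 (0.14) and 0.14 (0.09). The ratio of all type II to all type I keratin TPM was 0.682 ± 0.0523 in MOCK and 0.574 ± 0.165 in CYGB (SD, n = 3). CYGB replicate 1 (0.764) lay above all MOCK libraries and CYGB replicates 2 and 3 (0.470 and 0.487) below them. KRT8 and KRT18 lie side by side on chromosome 12 and overlap on opposite strands, and the strandedness of the counting is not stated, so some reads of the overlap could go to either gene. The table also holds 93 pseudogenes of KRT8, KRT18 and KRT19, which took 760 ± 327 counts in MOCK and 1004 ± 220 in CYGB, against 195658 and 199267 for the genes (means, n = 3).

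The other keratins were far lower. KRT10, a type I keratin of differentiating epidermis, came next with 26.7 TPM, followed by KRT7 (7.85 TPM), KRT80 (6.33 TPM) and KRT23 (4.67 TPM), neighbours whose ranges over the libraries overlapped from KRT7 to KRT23. KRT20, the keratin of differentiated intestinal epithelium, was near absent, with 12 to 30 counts in each library and a mean of 0.632 TPM.

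KRT80 (ENSG00000167767, chr12:52168996-52192000, minus strand, GRCh38), a type II keratin, had 9.76, 9.46 and 11.4 CPM in MOCK and 13.4, 13.5 and 15.0 CPM in CYGB. All CYGB libraries were above all MOCK libraries, in a narrow range. The CYGB values include a transcript that keeps an intron and was found in CYGB alone, described below. Without that transcript, each CYGB library held fewer KRT80 counts than any MOCK library. The log2 fold change was 0.45 (standard error 0.14), with an adjusted p of 0.963 from edgeR's quasi-likelihood test. KRT10 (ENSG00000186395) had 57.0, 31.6 and 12.7 CPM in MOCK and 18.4, 14.8 and 10.0 CPM in CYGB. Its MOCK libraries ranged over 4.49-fold and MOCK replicate 3 lay among the CYGB libraries (log2 fold change -1.23, standard error 0.54). Without MOCK replicate 3 the value was -1.62 and KRT10 passed the threshold of the methods, and without MOCK replicate 1 it was -0.62.

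**Figure D2:**
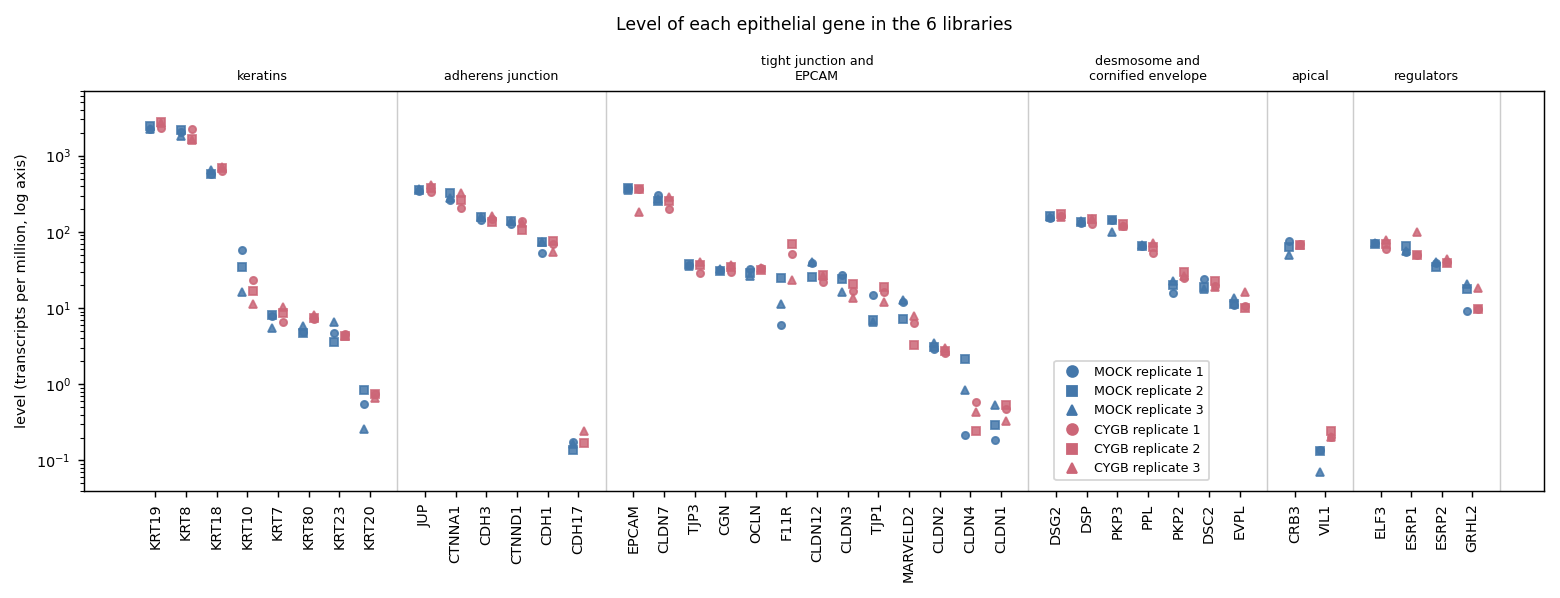
Level of each of the 40 genes in the 6 libraries, in TPM on a log axis, grouped by role and ordered by mean level; blue marks are MOCK, red marks are CYGB, and shapes are replicates. KRT19, KRT8 and KRT18 stand above all others, and KRT20, CDH17, CLDN4, CLDN1 and VIL1 lie at or below about 1 TPM on average.

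The adherens junction genes were close between the groups. All 6 had log2 fold changes within 0.25 of 0 (12101 of all 19987 genes did), none separated the groups, and none had an unadjusted p under 0.05. CDH1 (E-cadherin, ENSG00000039068) had the same mean in both groups, 159 ± 37.5 CPM in MOCK and 159 ± 24.6 CPM in CYGB (SD, n = 3), with 116, 181 and 180.3 CPM in MOCK and 167, 179 and 132 CPM in CYGB. The log2 fold change was 0.00 (standard error 0.21). CDH3 (P-cadherin) had more RNA per length than CDH1, 151 against 66.8 TPM over the 6 libraries, and their ranges did not overlap. CDH17, the cadherin of liver and intestine, was near absent, with 2 to 25 counts per library.

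JUP (plakoglobin, a catenin shared by adherens junctions and desmosomes) was the highest of the group at 365 TPM. It had 573, 595 and 603 CPM in MOCK and 541, 607 and 690.5 CPM in CYGB, with the MOCK libraries inside the range of CYGB. CTNNA1 (alpha-catenin, the link to actin; 277 TPM) had 450.1, 507 and 496 CPM in MOCK and 327, 385 and 526 CPM in CYGB. CYGB replicate 3 was the highest of all 6 and the other CYGB libraries the lowest, and the log2 fold change was -0.23 (standard error 0.18). CTNND1 (p120 catenin, which holds cadherins at the membrane) had 348, 379 and 387 CPM in MOCK and 358, 287 and 349 CPM in CYGB, and its groups overlapped (log2 fold change -0.16, standard error 0.10).

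The tight junction genes held both the highest and the lowest log2 fold change of the 40, neither past the threshold. Of 13 genes, 4 were above and 9 below 0, with a median log2 fold change of -0.21, and F11R and CLDN12 were those whose groups did not overlap. F11R (junctional adhesion molecule A, an immunoglobulin-like protein of the tight junction; ENSG00000158769, chr1:160995211-161021348, minus strand) had 9.78, 50.2 and 24.8 CPM in MOCK and 116, 163 and 55.3 CPM in CYGB. The lowest CYGB library was just above the highest MOCK library, and the MOCK libraries themselves ranged over 5.13-fold. Means of 28.3 ± 20.4 CPM (MOCK) and 111 ± 53.8 CPM (CYGB; SD, n = 3) gave a log2 fold change of 1.98 (standard error 0.66) with an unadjusted p of 0.024 and an adjusted p of 0.963 in edgeR's quasi-likelihood test. Without MOCK replicate 2 the value was 2.68 and F11R passed the threshold of the methods. Nearly all its counts lay in ENST00000368026, with 427, 2561 and 1260 counts in MOCK and 5791, 8240 and 2883 in CYGB.

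CLDN12 (claudin-12; ENSG00000157224, chr7:90383721-90513402, plus strand) had 63.5, 40.7 and 65.8 CPM in MOCK and 34.6, 36.0 and 38.9 CPM in CYGB. All CYGB libraries were lower, and MOCK replicate 2 was close to them. The log2 fold change was -0.64 (standard error 0.20, unadjusted p = 0.0181, adjusted p = 0.963, edgeR's quasi-likelihood test). CLDN12 overlaps GTPBP10 and CDK14 on its strand. GTPBP10 had 673, 737 and 784 counts in MOCK and 909, 1153 and 816 in CYGB, and CDK14 had 975 to 1224 per library. How reads of these overlaps were assigned was not tested.

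TJP1 (ZO-1, the scaffold that ties claudins to actin; ENSG00000104067) had 49.5, 15.7 and 15.7 CPM in MOCK and 48.3, 56.5 and 37.1 CPM in CYGB. MOCK replicate 1 lay among the CYGB libraries, and the others were lower than all of them (log2 fold change 0.81, standard error 0.49). Without MOCK replicate 1 the value was 1.58 and TJP1 passed the threshold of the methods. TJP3 (ZO-3) and CGN (cingulin), which bind the same scaffold, differed little, with log2 fold changes of -0.09 (standard error 0.14) and 0.07 (0.12).

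**Figure D3:**
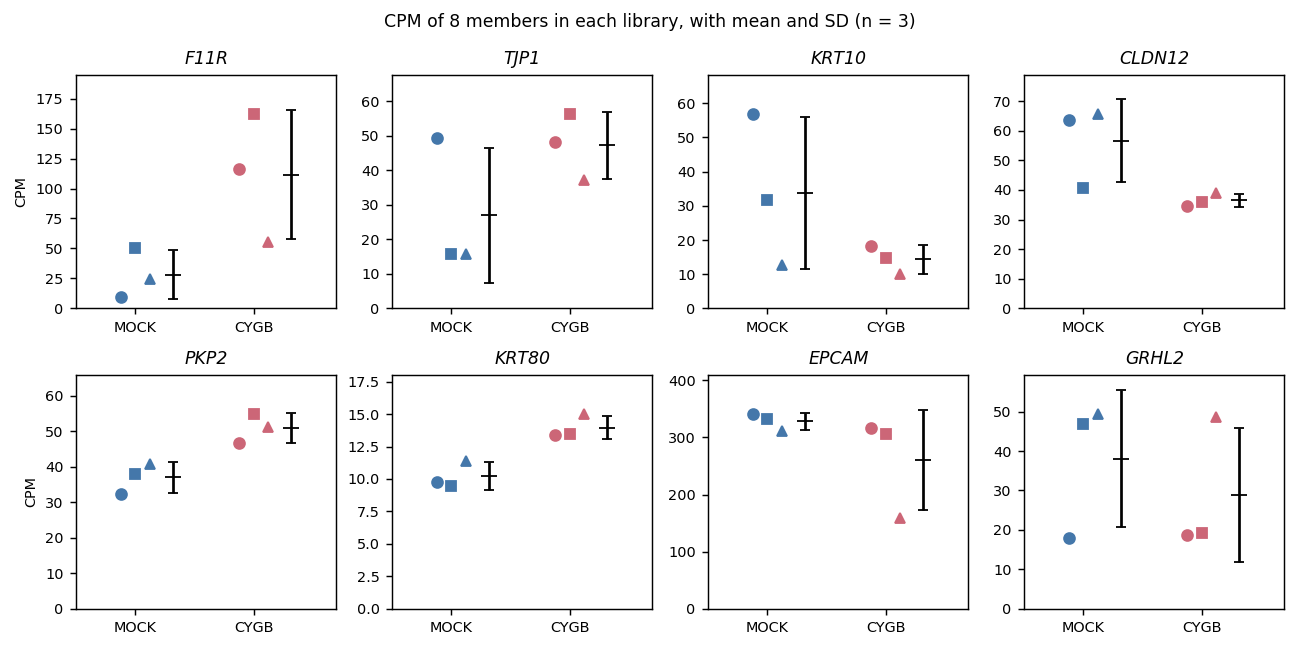
CPM of 8 of the genes in each library, blue for MOCK and red for CYGB, with circles, squares and triangles for replicates 1, 2 and 3; bars give the mean and SD (n = 3), and axes start at 0. F11R, PKP2 and KRT80 are higher and CLDN12 is lower in all CYGB libraries, while in TJP1, KRT10, EPCAM and GRHL2 the groups overlap.

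EPCAM, the epithelial adhesion molecule that binds claudin-7, and CLDN7 were the most abundant of this group, at 337 and 262 TPM. EPCAM had 341, 332 and 311 CPM in MOCK and 316, 307 and 159 CPM in CYGB. CYGB replicate 3 alone was low, and the log2 fold change of -0.33 (standard error 0.26) was -0.07 without it. CLDN7 had 173, 146 and 151 CPM in MOCK and 116, 141 and 163 CPM in CYGB, with groups that overlapped (log2 fold change -0.16, standard error 0.14). CLDN3 had 18.3, 15.9 and 10.6 CPM in MOCK and 10.7, 13.2 and 8.97 CPM in CYGB (log2 fold change -0.44, standard error 0.25).

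Of the other claudins, CLDN2, a claudin that forms pores for cations, was low at 2.96 TPM, and CLDN4 and CLDN1 were near absent at 0.748 and 0.393 TPM. CLDN4 had 6, 87 and 22 counts in MOCK and 17, 7 and 9 in CYGB. MOCK replicate 2 set the mean of MOCK, and the log2 fold change of -1.76 (standard error 0.94) was -0.37 without it. OCLN (occludin) had 68.8, 62.3 and 59.9 CPM in MOCK and 59.9, 67.8 and 33.2 CPM in CYGB. Per length its order was the other way round, with 29.5 ± 3.23 TPM in MOCK and 32.8 ± 1.31 TPM in CYGB (SD, n = 3), with its counts in transcripts of different length in different libraries. MARVELD2 (tricellulin, which seals the corners where cells meet) had 20.0, 10.8 and 25.9 CPM in MOCK and 13.7, 1.40 and 15.7 CPM in CYGB. CYGB replicate 2 stood far below the rest, and the log2 fold change of -0.88 (standard error 0.82) was -0.37 without it.

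Desmosome genes were abundant and mostly close between the groups, with 6 of 7 log2 fold changes within 0.25 of 0 (12101 of 19987 over all genes). DSG2 (desmoglein-2, the desmosomal cadherin of simple epithelia) was the highest at 159.8 TPM, and had 468, 479 and 471 CPM in MOCK and 474, 489.7 and 477 CPM in CYGB. It was also the steadiest of the 40, with at most 1.03-fold between libraries of a group and a log2 fold change of 0.02 (standard error 0.06). DSP (desmoplakin, the link to keratin; 138 TPM) had 607, 613 and 633 CPM in MOCK and 593, 663 and 687 CPM in CYGB (log2 fold change 0.07, standard error 0.08). DSC2 (desmocollin-2), PKP3 (plakophilin-3) and the plakins PPL and EVPL had log2 fold changes of -0.02, -0.10, -0.09 and 0.01.

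PKP2 (plakophilin-2, an armadillo protein of the desmosomal plaque; ENSG00000057294, chr12:32790745-32896840, minus strand) was the exception. It had 32.3, 38.0 and 40.7 CPM in MOCK and 46.6, 54.9 and 51.1 CPM in CYGB. All CYGB libraries were higher, and the log2 fold change of 0.46 had the lowest unadjusted p of the 40 (standard error 0.13, unadjusted p = 0.0114, adjusted p = 0.963, edgeR's quasi-likelihood test).

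The apical genes were CRB3 (Crumbs-3, which helps set the apical membrane) and VIL1 (villin, the actin bundler of microvilli). CRB3 was well expressed at 65.2 TPM, with 1433, 1375 and 1079 counts in MOCK and 1401, 1388 and 1521 in CYGB. The groups overlapped, with a log2 fold change of 0.12 (standard error 0.16). On the opposite strand CRB3 overlaps SLC25A23, which held 5323 to 6976 counts per library. VIL1 was near absent, with 22, 24 and 12 counts in MOCK and 34, 40 and 36 in CYGB. All CYGB libraries were higher, by a log2 fold change of 0.89 (standard error 0.35, unadjusted p = 0.0426, adjusted p = 0.963, edgeR's quasi-likelihood test), at a mean of 0.164 TPM. VIL1 overlaps USP37 on the opposite strand, which held 522 to 738 counts per library, and the strandedness of the counting is not stated.

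Among the regulators, ESRP1 and ESRP2 direct epithelial splicing, and ELF3 and GRHL2 are transcription factors of epithelial genes. None of the 4 separated the groups. ELF3 (69.8 TPM) had 101, 104 and 106 CPM in MOCK and 90.8, 97.8 and 116 CPM in CYGB, with the MOCK libraries inside the range of CYGB. ESRP1 (62.4 TPM) had 82.0, 101 and 82.6 CPM in MOCK and 72.0, 75.7 and 149.5 CPM in CYGB, so that CYGB replicate 3 was the highest and the other CYGB libraries the lowest. GRHL2 had 18.1, 46.8 and 49.4 CPM in MOCK and 18.7, 19.2 and 48.6 CPM in CYGB. Its libraries fell at a low and a high level in both groups, and the log2 fold change was -0.40 (standard error 0.53). ESRP2 was at 0.04 (standard error 0.16) on the log2 scale. It overlaps AC020978.5 on its strand, which held 167 to 1328 counts per library, and NFATC3 on the opposite strand, with 2116 to 2754.

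The spread within groups was that of other genes. A mean of 50 counts or more was reached by 35 of the 40, of which 8 (22.9%) ranged over 2-fold or more within a group, namely ESRP1, EVPL, F11R, GRHL2, KRT10, MARVELD2, OCLN and TJP1, against 25.2% of 14820 genes. CYGB replicate 3 was the lowest library of EPCAM and OCLN and the highest of ESRP1 and EVPL.

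Promoter sequences of RefSeq (GRCh38.p14, 250 bases before to 50 after the start) were matched for 21 of the 40 genes, in 33 windows. Genes without a window included CDH1, EPCAM, KRT18, KRT19, ESRP1, ESRP2 and GRHL2. The 33 windows were searched on both strands for CAGGTG and for AACCGGTT, a motif of grainyhead-like factors. CAGGTG is the E-box bound by the SNAI and ZEB repressors of epithelial genes, and reads CACCTG on the other strand. The E-box stood in 13 of 33 windows (39.4%), against 20.6% of 35116 windows, and AACCGGTT in 0 of 33, against 0.134%. CLDN7 (chr17:7262429-7262728, minus strand) and CRB3 (chr19:6464021-6464320, plus strand) held the most, 5 each, and are shown for that reason with the E-boxes in capitals.
CLDN7: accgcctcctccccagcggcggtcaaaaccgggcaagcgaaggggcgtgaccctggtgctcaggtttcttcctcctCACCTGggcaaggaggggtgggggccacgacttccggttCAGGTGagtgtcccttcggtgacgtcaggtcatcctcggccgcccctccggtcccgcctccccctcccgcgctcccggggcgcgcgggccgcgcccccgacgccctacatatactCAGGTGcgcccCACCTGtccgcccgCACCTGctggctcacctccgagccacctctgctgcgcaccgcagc
CRB3: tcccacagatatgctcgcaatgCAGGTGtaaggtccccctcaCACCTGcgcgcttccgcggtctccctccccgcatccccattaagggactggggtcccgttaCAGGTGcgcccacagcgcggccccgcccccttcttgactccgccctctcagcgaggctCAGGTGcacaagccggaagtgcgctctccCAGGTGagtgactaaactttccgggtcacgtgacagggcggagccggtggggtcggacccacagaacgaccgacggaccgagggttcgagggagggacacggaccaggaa
A match of letters is a description, and binding was not measured here. In these libraries SNAI1 had 22.9 TPM in MOCK and 24.5 TPM in CYGB, and ZEB1 had 1.30 TPM over the 6 libraries.

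The table counts transcripts, so the 315 transcripts of the 40 genes were also compared, of which 189 passed the expression filter. The threshold of the methods was passed by 4 of the 189 (2.12%), against 1.02% of 66609 transcripts (0.540% higher and 0.482% lower in CYGB). Each belonged to a different gene, with 2 higher (KRT80 and PKP2) and 2 lower (MARVELD2 and PKP3). All 4 passed the expression filter only through the group in which they were higher, so their p-values and this share are descriptions. Under a filter of 50 mean counts the KRT80 transcript alone passed. None had an adjusted p under 0.05 in edgeR's quasi-likelihood test, against 0.0150% of all transcripts. All 4 did with DESeq2 and with edgeR's exact test, and no other transcript of the 189 did (2.12%, against 1.12% and 0.779% of all transcripts). By the threshold of the methods DESeq2 called 5 of the 189, the fifth in KRT18, and the exact test 4, against 2.26% and 1.66% of all transcripts. An unadjusted p under 0.05 was found for 10 of the 189, against 3.78% of all transcripts. The groups did not overlap for 25 of them (13.2%), 11 higher and 14 lower, against 10.4% of all transcripts (5.19% higher and 5.25% lower). The sources used here do not say how reads shared by several isoforms were counted. Of the 315 transcripts, 36 have no stretch of 150 bases, the read length, that no other transcript of their gene shares.

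In KRT80 a transcript that keeps an intron was found in CYGB alone. ENST00000466011, annotated as retained intron, had 0, 0 and 0 counts in MOCK and 265, 246 and 532 in CYGB. With 3 counts over the MOCK libraries taken as a limit for counting error alone, it was at least 344-fold higher (unadjusted p = 0.000265, adjusted p = 0.173, edgeR's quasi-likelihood test). That limit leaves out the spread between libraries, in which transcripts of high count can have 0 counts in another library of the same group. The coding transcript ENST00000394815 had 461, 474 and 305 counts in MOCK and 314, 220 and 26 in CYGB, and ENST00000313234 had 0, 26 and 283 in MOCK and 98, 219 and 231 in CYGB. Of the windows of 150 bases of ENST00000466011, 600 (18.5%) are in no other KRT80 transcript. The coding ENST00000394815 has no such window of its own. The kept intron (chr12:52180609-52180902, minus strand, GRCh38, 294 bases) is shown with its splice site bases, GT and AG, in capitals.
KRT80 intron: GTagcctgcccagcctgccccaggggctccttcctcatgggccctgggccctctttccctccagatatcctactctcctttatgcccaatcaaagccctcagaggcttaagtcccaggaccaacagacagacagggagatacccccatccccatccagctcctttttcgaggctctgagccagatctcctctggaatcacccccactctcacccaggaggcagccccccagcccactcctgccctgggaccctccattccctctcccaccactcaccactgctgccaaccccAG
The gene total of KRT80, at 0.45 on the log2 scale, contains the counts of ENST00000466011. With them the gene had 461, 500 and 588 counts in MOCK and 677, 685 and 789 in CYGB. Without them each CYGB library held fewer KRT80 counts than any MOCK library.

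In PKP2 the transcript called was a coding form with an added exon. ENST00000070846 had 0, 0 and 0 counts in MOCK and 39, 13 and 65 in CYGB, at least 38.5-fold higher by the same limit of 3 counts (unadjusted p = 0.0037, adjusted p = 0.565, edgeR's quasi-likelihood test). It fell short of the threshold without CYGB replicate 1 or without CYGB replicate 3. ENST00000340811, which lacks that exon, held most of the gene, with 1454, 1869 and 1919 counts in MOCK and 2144, 2625 and 2459 in CYGB, which did not overlap. The added exon is in no other PKP2 transcript, and 280 of the windows of ENST00000070846 (6.84%, 150 bases each) are in none either. Stretches of that exon also occur in transcripts of other genes. Whether the counts of this form came from PKP2 was not tested.

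In MARVELD2 the transcript ENST00000512803 (chr5:69415382-69440496, plus strand), which starts in an exon of its own of 343 bases, had 133, 87 and 71 counts in MOCK and 0, 1 and 6 in CYGB. All MOCK libraries were higher, and the log2 fold change was -5.34 (standard error 1.15, unadjusted p = 0.00411, adjusted p = 0.605, edgeR's quasi-likelihood test). It did not pass without CYGB replicate 2, nor without any of the 3 MOCK libraries. ENST00000646733 was the most abundant MARVELD2 transcript in the MOCK libraries but in no CYGB library. It had 496, 316 and 1184 counts in MOCK and 299, 0 and 255 in CYGB. All its windows of 150 bases occur in other MARVELD2 transcripts, and how reads were divided between them was not tested.

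In PKP3 the short transcript ENST00000528036 (chr11:394145-397438, plus strand, 4 exons) had 62, 107 and 39 counts in MOCK and 4, 4 and 2 in CYGB. The groups were far apart, and the log2 fold change was -4.32 (standard error 0.58, unadjusted p = 0.000383, adjusted p = 0.204, edgeR's quasi-likelihood test). It shares nearly all its sequence, with 37 windows of 150 bases (4.68%) in no other PKP3 transcript. The full-length ENST00000331563, with 9090, 9624 and 6853 counts in MOCK and 7838, 7884 and 8642 in CYGB, held nearly all of the gene, and PKP3 as a whole did not separate the groups.

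**Figure D4:**
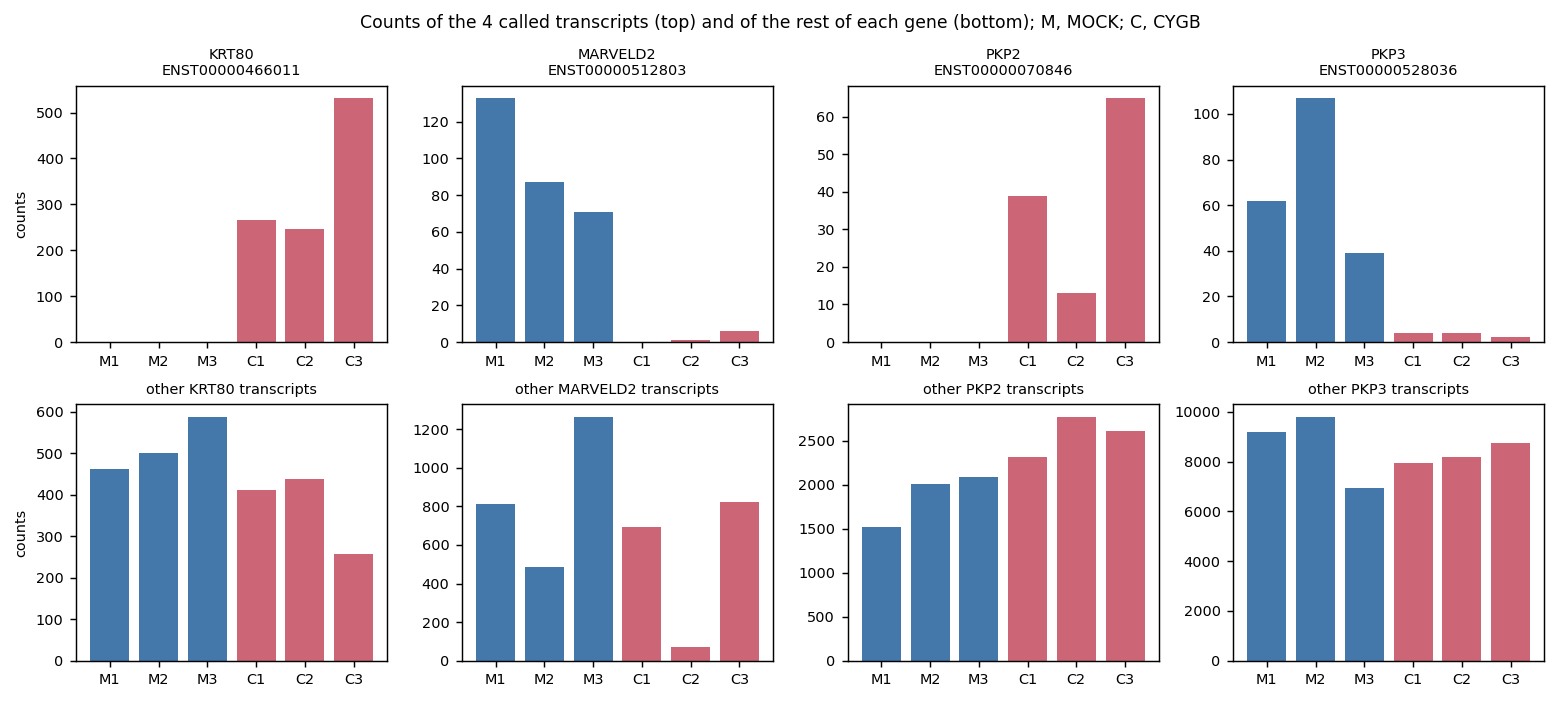
Counts in each library of the 4 transcripts past the threshold of the methods (top row) and of all other transcripts of the same gene (bottom row), blue for MOCK and red for CYGB, with axes from 0. The KRT80 and PKP2 transcripts have 0 counts in every MOCK library, and the MARVELD2 and PKP3 transcripts have at most 6 counts in any CYGB library.

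Which transcript of a gene was the most abundant often differed between libraries of the same group. Among the 40, 34 had at least 2 transcripts and a mean of 50 counts or more, and 22 of these (64.7%) had the same most abundant transcript in all 6 libraries, against 58.5% of 12811 genes. In the other 12 (CDH3, CLDN12, CTNNA1, CTNND1, ESRP1, EVPL, GRHL2, KRT23, KRT80, MARVELD2, OCLN and TJP1) it varied. In none of them did 1 transcript lead in all MOCK libraries and another in all CYGB libraries, as was the case in 0.539% of genes. In MARVELD2 alone the leading transcripts of the groups had none in common, as in 1.60% of genes. ENST00000646733 led in all MOCK libraries, ENST00000454295 in CYGB replicates 1 and 3 and ENST00000515844 in CYGB replicate 2. ENST00000646733 has no window of 150 bases of its own, ENST00000454295 has 118 (2.79%) and ENST00000515844 has 120 (28.1%). Whether the division of shared reads set these leads was not tested.

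OCLN showed a change of leading transcript within the CYGB group. ENST00000355237 had 2501, 2611 and 2582 counts in MOCK and 263, 2856 and 195 in CYGB, and ENST00000538151 had 0, 0 and 0 in MOCK and 1968, 0 and 0 in CYGB. Each CYGB library thus had another leading transcript, while the MOCK libraries were alike. In CTNND1, ENST00000534579 had 12187 counts in CYGB replicate 2 and 0 in all other libraries, and ENST00000526772 had 4992, 0 and 0 counts in MOCK and 6367, 0 and 7339 in CYGB. ENST00000526772 has no window of 150 bases of its own, and ENST00000534579 has 146 (2.49%). In CTNNA1, ENST00000518825 had 9923, 0 and 7434 counts in MOCK and 0 in all CYGB libraries, and ENST00000302763 had 1456, 13559 and 1540 in MOCK and 5352, 8663 and 16223 in CYGB. ENST00000518825 has no window of 150 bases of its own, and ENST00000302763 has 1. The totals of these genes varied far less. Of 74 transcripts of the 40 genes that reached 500 counts in a library, 6 (8.11%) had 0 counts in another library of the same group, against 9.64% of 17291 transcripts. In TJP1 the low total of MOCK replicates 2 and 3 lay in ENST00000614355, with 1706, 124 and 105 counts in MOCK and 1724, 2070 and 1310 in CYGB, whereas ENST00000346128 had 444, 300 and 395 in MOCK and 370, 501 and 440 in CYGB. ENST00000614355 also has no window of 150 bases of its own.

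**Figure D5:**
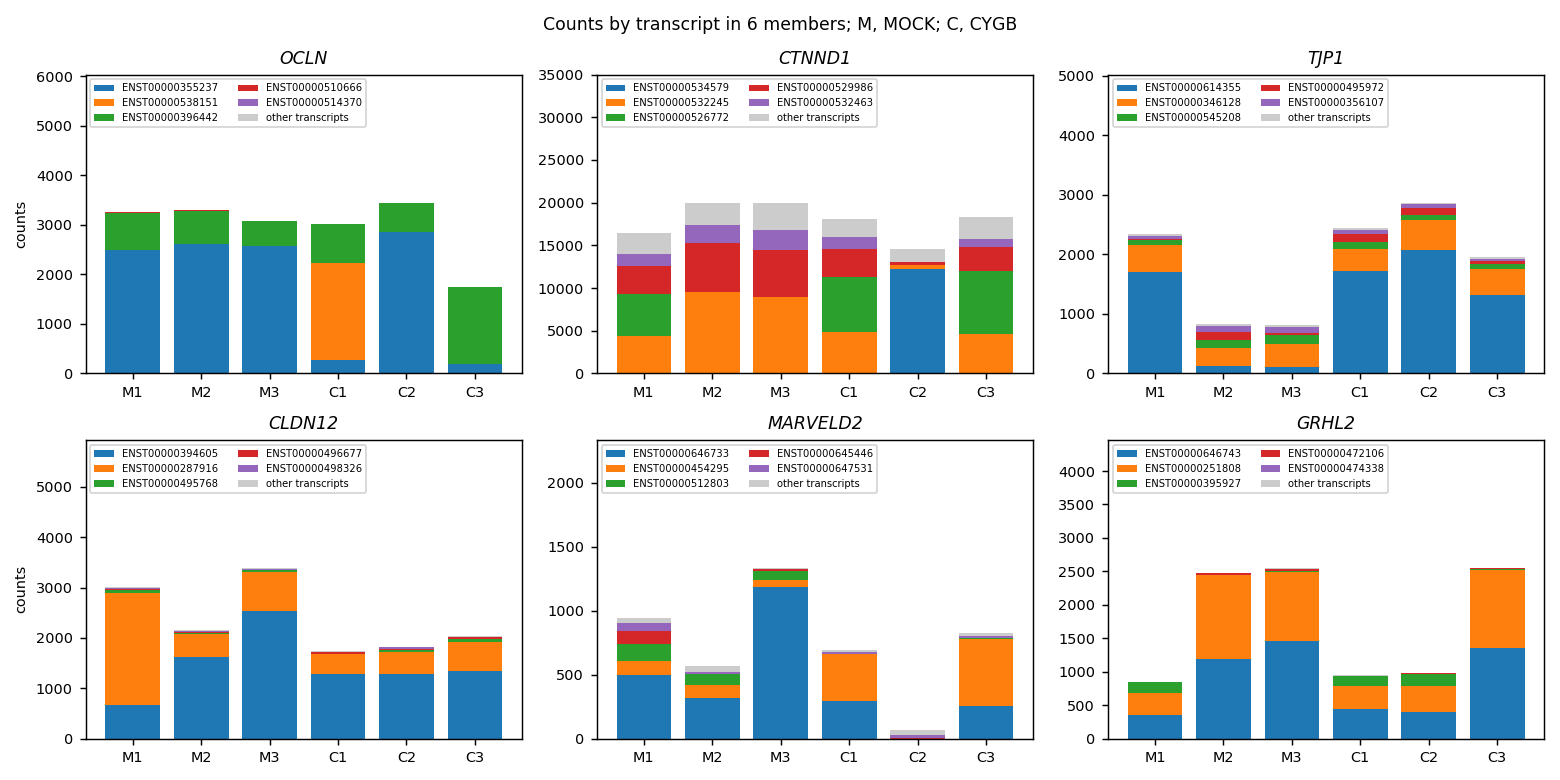
Counts by transcript in each library for OCLN, CTNND1, TJP1, CLDN12, MARVELD2 and GRHL2, stacked by transcript (colours) with the rest in grey; M is MOCK and C is CYGB. The leading transcript changes between libraries of the same group, as in the 3 CYGB libraries of OCLN, and the low TJP1 totals of MOCK replicates 2 and 3 are those with little of the blue transcript.

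The rest of the epithelial and mesenchymal programme was read from 5 further lists of 150 genes in all, of which 115 were tested. None passed the threshold of the methods in edgeR's quasi-likelihood test (0 of 115), and DESeq2 and edgeR's exact test called 4 each (3.48%, against 1.32% and 1.28% of all genes), namely DSC1, EHF, KRT12 and EPPK1, all lower and named after their values were seen. Of the 115, DSC1 and KRT12 had an adjusted p under 0.05 by the exact test (against 0.320% of all genes) and none by DESeq2 or the quasi-likelihood test. By the quasi-likelihood test an unadjusted p under 0.05 was found for 6 (5.22%), close to the 4.54% of all genes. The groups did not overlap for 1 gene that was higher (0.870%) and 13 that were lower (11.3%), against 5.72% and 5.31% of all genes, and the median log2 fold change was -0.01. Log2 fold changes ranged from -3.38 to 0.50 in other junction genes and from -3.01 to 0.62 in other keratins. They ranged from -0.75 to 1.01 in polarity and apical genes, and from -3.37 to 0.23 in epithelial factors and partners. Among other junction genes, CTNNB1 (beta-catenin; 243 TPM) and PERP (a desmosomal membrane protein; 216 TPM) were the highest, with log2 fold changes of -0.02 each. Among other keratins the highest were KRT15 (27.0 TPM) and KRT17 (4.71 TPM), at 0.21 and 0.24. Of polarity and apical genes, EZR (ezrin, which ties the apical membrane to actin) reached 1319 TPM and MSN (moesin) 269 TPM, at 0.33 and 0.10. SPINT2, a membrane protease inhibitor, and S100A14 led the list of epithelial factors and partners with 505 and 279.8 TPM, at 0.13 and -0.01.

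The mesenchymal list was tested in 18 of 26 genes, with none at an unadjusted p under 0.05 and a median log2 fold change of -0.08. The groups did not overlap for 4 of the 18 (22.2%), all lower in CYGB, against 5.31% of all genes. These were ZEB1, TWIST1, ACTA2 and LOX, with log2 fold changes of -1.52, -0.55, -0.84 and -0.51. S100A4 (297 TPM) and ITGA5 (106 TPM) were the highest, at -0.15 and 0.15. VIM (vimentin) was low, with 393, 438 and 387 counts in MOCK and 374, 466 and 468 in CYGB, a mean of 8.64 TPM. CDH2 (N-cadherin) had 0, 2 and 7 counts in MOCK and 0, 5 and 0 in CYGB, too few to be tested. ZEB1, the repressor of CDH1, had 251, 289 and 306 counts in MOCK and 0, 246 and 51 in CYGB. Its CYGB libraries lay below those of MOCK with a wide spread, at a log2 fold change of -1.52 with an unadjusted p of 0.295 (edgeR's quasi-likelihood test).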

How the data were processed

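The authors deposited raw counts per transcript, made from paired-end NEBNext Ultra libraries and without normalization. The submitters' processing notes name HISAT2, HISAT, DESeq2 and hg19, but the positions in the table match GENCODE 29 on GRCh38 for 99.6% of the 151393 transcripts with a gene that it also holds, and for all 315 used here, so GRCh38 is given. The counter, its treatment of isoforms and strand are not given in the sources used here. Transcripts without a gene (18.6 to 19.5% of counts) were left out of library sizes.

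Counts were summed per gene, filtered by filterByExpr (minimum count 10), normalized by TMM and tested in edgeR 4.0.16 (glmQLFit, glmQLFTest; R 4.3.3), CYGB against MOCK, with Benjamini-Hochberg adjustment over all features. The biological coefficient of variation was 36.6% for genes and 78.9% for transcripts. In simulated counts, 200 features with a mean of 50 counts or more were changed 8-fold. Of these, 96% of changed genes (19306 tested) and 69% of changed transcripts (60554 tested) passed the threshold of the methods. An adjusted p under 0.05 was reached by 91% and 0%. Recovery of features with fewer counts was not tested. TPM used GENCODE 29 lengths. Alternatives used DESeq2 1.42.0, edgeR's exact test, other filters and normalization, a replicate block, and each library left out in turn.

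The 40 genes and the other lists, of which 150 of 152 symbols were found, were chosen with earlier results of these data known. Values in every library are given for the 12 lowest p, the 2 highest TPM of each role, called transcripts and genes whose groups did not overlap. Genes shown for their isoforms or for a library that stood apart (CDH1, EPCAM, GRHL2, OCLN, MARVELD2) were added after their values were seen. Figures were drawn with matplotlib 3.10.9. A further marker gene and a further sequence were examined and are not reported here.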

Additional observations from a re-analysis of the deposited data

How the results depend on the processing

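The labels state no pairing of same-numbered libraries, and the main test used none. Deviations of same-numbered libraries from their group means had correlations of 0.0159, 0.0049 and 0.0253 over genes. Such values show no strong shared effect, but cannot tell whether these libraries were prepared together. With the replicate block, 0 of the 40 genes and 1 of their transcripts (PKP3) passed the threshold of the methods, against 0 and 4 without it, and 1 gene of the other lists (EPPK1) passed. Over all features the block lowered the calls from 113 to 78 genes and from 681 to 291 transcripts. DESeq2 and edgeR's exact test called 1 of the 40 genes (F11R), 4 genes of the other lists (DSC1, EHF, KRT12 and EPPK1), and 4 transcripts each at an adjusted p under 0.05, and raised the calls over all features to 263 and 256 genes and to 1506 and 1103 transcripts. Under a filter of 50 mean counts 1 transcript passed (KRT80), and without a filter on low counts 1 gene of the other lists passed (CTNNA3). With a library left out, 0 to 1 of the 40 genes passed (TJP1 without MOCK replicate 1, F11R without MOCK replicate 2, KRT10 without MOCK replicate 3), 3 to 7 transcripts, against 0.593 to 0.853% of all genes and 1.31 to 1.66% of all transcripts, and 0 to 2 genes of the other lists (SPARC without MOCK replicate 2, EPPK1 without MOCK replicate 3, MAGI3 without CYGB replicate 2, DSC1 and MAGI1 without CYGB replicate 3). Without MOCK replicate 2 the 7 transcripts lay in CTNNA1, JUP, KRT80, PKP2 and PKP3. The median log2 fold change of the 40 genes ranged from -0.08 to 0.03 with a library left out.

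Of 555 values of the 40 genes under alternatives, 518 kept their direction, none passed an adjusted p of 0.05 (lowest 0.185), and 37 in 21 genes reversed. By the most abundant transcript, the log2 fold change was -1.14 for KRT80, 0.90 for CTNNA1, 0.31 for KRT23, -0.11 for EVPL, 0.10 for ELF3, -0.050 for CRB3, -0.030 for KRT20, -0.016 for ESRP2, 0.015 for DSC2 and -0.00052 for CDH1, each opposite to the gene total. It was -0.0030 for CDH1 under the filter of 50 mean counts and -0.062 for EVPL with the replicate block. With a library left out the values crossed 0 in CDH1 from -0.18 to 0.12, CDH17 from -0.77 to 0.37, CDH3 from -0.12 to 0.031, CGN from -0.036 to 0.15, CLDN1 from -0.090 to 0.67, CRB3 from -0.0093 to 0.25, DSC2 from -0.11 to 0.077, ELF3 from -0.13 to 0.046, ESRP1 from -0.26 to 0.35, ESRP2 from -0.067 to 0.15, EVPL from -0.41 to 0.21, JUP from -0.037 to 0.14, KRT20 from -0.26 to 0.28, KRT7 from -0.024 to 0.26, OCLN from -0.46 to 0.0070, PKP3 from -0.25 to 0.0011, PPL from -0.22 to 0.013 and TJP3 from -0.19 to 0.033, none of which was over 0.25 from 0 with all libraries. The cause of these reversals was not tested. At 2 to 87 counts per library, depth limits the comparison of CLDN1, CLDN4, KRT20, CDH17 and VIL1.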
